A study of Homo sapiens with 8 samples.

Results

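The response to ciclopirox was compared between NB1691 and SKNBE2, the line also written SK-N-BE(2), both human neuroblastoma cell lines that the labels class as N-Myc. Ciclopirox is an antifungal drug that binds iron. Each line had been treated for 48 h with 2.5 µM ciclopirox or with vehicle and put on 1 Affymetrix expression array per treatment, so the comparison uses 4 of the 8 arrays of the series. The other 4 arrays hold the same treatments of SKNAS/shHIF1a, a derivative of SKNAS with a short hairpin against HIF1A, and of SKNAS, which the labels class as N-Myc and c-Myc. All arms were grown in the same serum-supplemented RPMI medium, and the labels give no clone, passage or culture replicate. For each gene the change in a line is the ciclopirox level minus the vehicle level on the deposited log2 scale, and the difference in response is the change in NB1691 minus the change in SKNBE2, so that 1 stands for 2-fold. With 1 array per line and treatment there is no replicate error, no test was possible, and every value below describes these arrays.

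The programs compared have well known controls. p53 is a transcription factor that answers DNA damage and other stress by switching on cell cycle arrest, repair and death genes, and MDM2 is the ligase that destroys it. NB1691 is known to carry amplified MDM2, which is background here and was not measured. Cholesterol synthesis genes are driven by SREBP2, a membrane-held factor released when sterols run low. The integrated stress response converges on the factor ATF4, which drives amino acid uptake and synthesis genes and the death-linked factors DDIT3 and CHAC1. HIF, the hypoxia-inducible factor, is held down by enzymes that need iron, and removing iron is known to release it.

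Markers of neuroblastoma were present in both lines, beside some genes of other cell types. Of 9 noradrenergic neuroblastoma markers 8 were on the array, and all of these lay above the level filter on the 4 arrays, at log2 levels of 4.63 to 13.15. MYCN mRNA, which encodes N-Myc, stood at log2 11.77 under ciclopirox and 12.05 under vehicle in NB1691, against 12.53 and 12.48 in SKNBE2. In short marker sets of 5 or 6 genes, Schwann cell markers reached at most 4.14, epithelial ones 5.0, blood cell ones 6.22 (LCP1 in SKNBE2 under vehicle) and endothelial ones 6.15. Of 6 mesenchymal markers 3 lay above the level filter on all 4 arrays. FN1, fibronectin, had levels of 8.26 under ciclopirox and 8.66 under vehicle in NB1691, against 7.21 and 7.34 in SKNBE2. COL1A1, a collagen, had levels of 7.54 and 8.4 in NB1691, against 4.03 and 5.02 in SKNBE2. Both were thus brighter in NB1691. In the longer lists, KRT5, a keratin, had levels of 6.59 and 7.51 in NB1691, against 2.97 and 2.90 in SKNBE2, whereas DCN, a matrix proteoglycan, had 2.93 and 3.10 in NB1691, against 8.12 and 9.10 in SKNBE2. The part of these markers in the results was not tested. The endothelial value was that of VWF, with levels of 6.15 under ciclopirox and 4.94 under vehicle in NB1691, against 3.07 and 3.31 in SKNBE2. The 4 array medians were close to 3.5, and none of 102 control probe sets had a difference in response of 1 or more (0 of 102). The gap between 3′ and 5′ probe sets for ACTB, a sign of RNA quality, was 3.22 under ciclopirox and 2.82 under vehicle in NB1691, against 2.85 and 2.90 in SKNBE2, and its part in the results was not tested.

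NB1691 had more genes past 2-fold than SKNBE2. Of 14517 genes above the level filter, 1224 differed at least 2-fold between ciclopirox and vehicle in NB1691, against 487 in SKNBE2. In NB1691 481 genes were higher under ciclopirox (3.31% of all) and 743 were lower (5.12%). In SKNBE2 306 were higher (2.11%) and 181 were lower (1.25%). The lower genes outnumbered the higher ones in NB1691, and the reverse held in SKNBE2.

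The difference in response was +1 or more for 605 genes (4.17%) and -1 or less for 954 (6.57%), against an all-gene median of -0.03. Of these 14517 genes 6928 had a difference above 0. Between SKNAS/shHIF1a and its parent SKNAS, another pair of single-array responses, the same threshold was passed by 384 genes upward (2.65%) and 398 downward (2.74%), so the unrelated N-Myc lines differed in more genes than the derivative and its parent.

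Genes past 2-fold in one line and within 0.5 of 0 in the other were counted as changed in that line alone. There were 290 genes higher in NB1691 alone (2.0%) and 493 lower in NB1691 alone (3.4%), against 143 higher in SKNBE2 alone (0.985%) and 84 lower in SKNBE2 alone (0.579%). Past 2-fold in both lines were 68 higher genes (0.468%) and 53 lower genes (0.365%). Opposite changes past 2-fold were rare, with 2 genes higher in NB1691 and lower in SKNBE2 (0.0138%) and 8 genes lower in NB1691 and higher in SKNBE2 (0.0551%). Among the genes higher or lower in NB1691 alone, 35 and 62 lay below the level filter on both SKNBE2 arrays. Among those higher or lower in SKNBE2 alone, 7 and 9 lay below it on both NB1691 arrays. For these genes the other line had little signal in which a lower level could have shown.

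**Figure D1:**
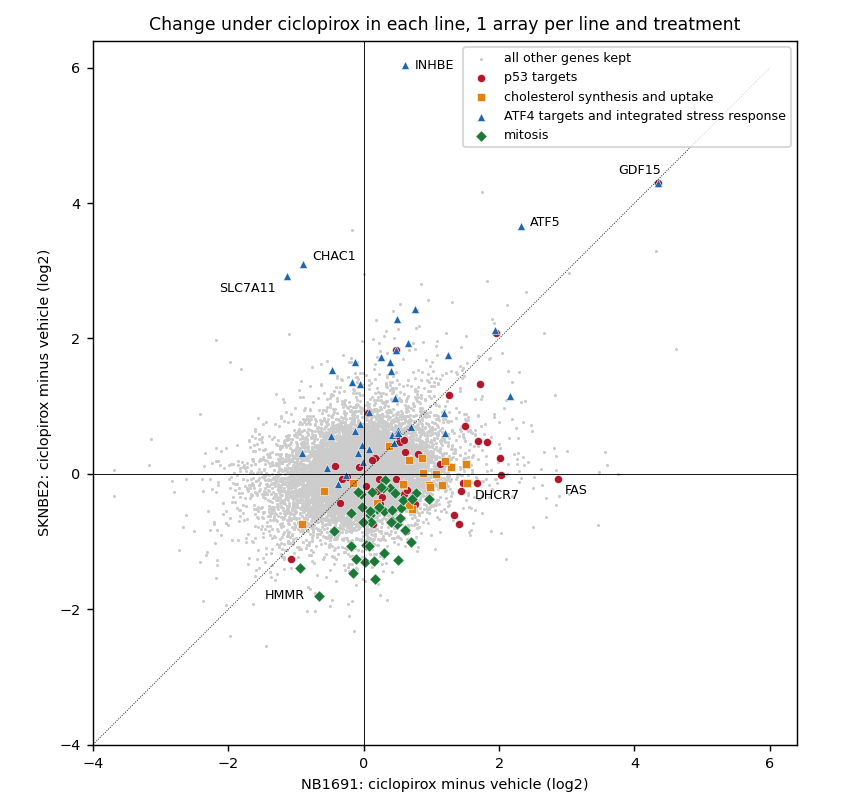
Each point is 1 gene, with its change under ciclopirox in NB1691 on the x axis and in SKNBE2 on the y axis, both in log2 units from 1 array per line and treatment; grey points are the other genes of 14517, coloured points are 4 gene lists, and the dotted line marks equal change. The mitosis genes lie below the line in 42 of 42 cases, GDF15 lies near it at 4.35 and 4.29, and INHBE lies far above it at 0.62 and 6.04.

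p53 targets were higher under ciclopirox mainly in NB1691. Of 42 measured targets, 16 were at least 2-fold higher and 1 lower in NB1691, against 5 higher and 1 lower in SKNBE2, where 3.31% and 2.11% of all genes were higher. The median change was 0.60 in NB1691 and -0.03 in SKNBE2, beside all-gene medians of -0.02 and -0.01. The difference in response was +1 or more for 12 of the 42 (28.6%, against 4.17% of all genes) and -1 or less for 1 of them. The vehicle level was higher in NB1691 for 31 of the 42 genes.

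FAS, the death receptor, had log2 levels of 6.33 under ciclopirox and 3.46 under vehicle in NB1691, against 3.21 and 3.29 in SKNBE2. The NB1691 ciclopirox array stood alone, and the other 3 arrays lay near the level filter of 3.21. The change was 2.87 in NB1691, against a change of -0.08 in SKNBE2. The 4 FAS probe sets agreed in direction, with differences of 1.27 to 2.95.

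DDB2, a DNA damage sensor of nucleotide excision repair, had levels of 9.26 under ciclopirox and 7.93 under vehicle in NB1691, against 4.45 and 5.06 in SKNBE2. It was higher under ciclopirox in NB1691 and lower in SKNBE2, with changes of 1.33 and -0.61. Its promoter is shown because it was the only one of 35 p53 targets with a RefSeq promoter entry to hold a full p53 element, a pair of half-sites with a spacer of at most 3 bases, searched on both strands of windows that run 250 bases before to 50 after the start of the gene. In all, 7 of 27305 genes held one (0.0256%). The capitals in the window of DDB2 (GRCh38.p14, chr11:47214724-47215023, plus strand) mark this element, which begins 6 bases past the start:
DDB2: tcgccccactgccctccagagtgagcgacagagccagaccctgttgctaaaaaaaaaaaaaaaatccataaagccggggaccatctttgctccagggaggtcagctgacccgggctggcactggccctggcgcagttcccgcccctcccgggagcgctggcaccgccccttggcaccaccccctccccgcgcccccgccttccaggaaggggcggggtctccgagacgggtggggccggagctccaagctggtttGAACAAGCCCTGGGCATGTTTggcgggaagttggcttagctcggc
A single half-site was found in 7 of the 35 targets, namely ABHD4, AEN, DDB2, FAS, PLK2, RPS27L and SESN1, and in 8.06% of all genes. The median difference in response was 1.78 for these 7 and 0.35 for the targets without it. No match says only that these letters are not in this window.

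TIGAR, a phosphatase that slows glycolysis, had levels of 7.89 under ciclopirox and 6.48 under vehicle in NB1691, against 7.81 and 8.55 in SKNBE2. KITLG, the ligand of the receptor KIT, had levels of 8.01 and 5.98 in NB1691, against 9.14 and 9.15 in SKNBE2. AEN, a nuclease of apoptosis, had levels of 9.38 and 7.71 in NB1691, against 7.97 and 8.11 in SKNBE2. In each of these the ciclopirox array of NB1691 lay above its vehicle array by more than 1.4, whereas the SKNBE2 arrays were level or lower under ciclopirox.

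PLK2, a kinase induced by p53, was higher by 2.02 in NB1691 and by 0.24 in SKNBE2. PPM1D, a phosphatase that turns the p53 response off, had changes of 1.47 and -0.14. GADD45A, a growth arrest gene, had changes of 1.69 and 0.49. TRIAP1, an inhibitor of apoptosis, had changes of 0.76 and -0.45, and PHLDA3, an inhibitor of AKT, 1.44 and -0.25. Both PPM1D probe sets gave like differences, 1.61 and 1.44.

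MDM2 itself depends on the probe set. The brightest of its 7 probe sets had levels of 12.84 under ciclopirox and 12.61 under vehicle in NB1691, against 8.85 and 8.93 in SKNBE2, so the NB1691 levels stood near the top of the scale and the change there was 0.23. Of the dimmer probe sets, 3 had changes of 1.98, 2.37 and 2.58 in NB1691, with SKNBE2 changes of -0.07, -0.0009 and -0.16. The other 3 had smaller changes of 0.65, 0.03 and 0.51 in NB1691, with SKNBE2 changes of -0.20, 0.10 and -0.10. The probe set at 0.03 had NB1691 levels of 11.32 under ciclopirox and 11.28 under vehicle. MDM4, the partner of MDM2, was close to level, with changes of 0.33 and 0.72.

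**Figure D2:**
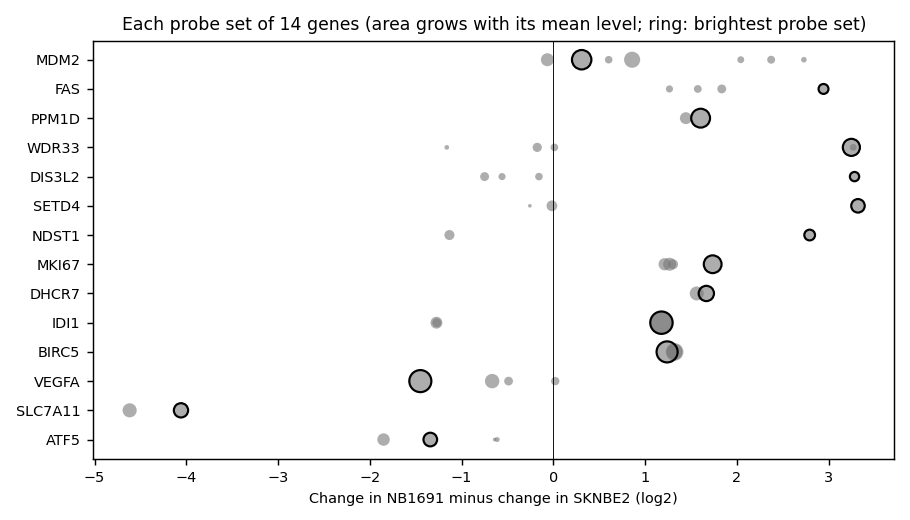
Each circle is 1 probe set of 14 genes, picked after their values were seen and placed by the change in NB1691 minus the change in SKNBE2 (log2, x axis), with an area that grows with its mean level and a ring around the brightest probe set. MDM2 runs from about 0 to 2.73, FAS stays between 1.27 and 2.95, IDI1 and WDR33 have probe sets on both sides of 0, and both SLC7A11 probe sets lie below -4.

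Some p53 targets were higher under ciclopirox in both lines. GDF15, a stress cytokine that is also a target of ATF4, had levels of 12.19 under ciclopirox and 7.83 under vehicle in NB1691, against 7.65 and 3.36 in SKNBE2. Its change was 4.35 in NB1691 and 4.29 in SKNBE2. The SKNBE2 vehicle level lay close to the level filter of 3.21, so the size of the change there is uncertain. CDKN1A, which encodes the cell cycle inhibitor p21, had levels of 10.89 and 9.17 in NB1691, against 6.90 and 5.58 in SKNBE2. Both lines had more CDKN1A under ciclopirox, by 1.72 and 1.32, while the SKNBE2 ciclopirox level stayed below the NB1691 vehicle level. The death receptor gene TNFRSF10B (1.96 and 2.09) and TP53INP1, a p53 cofactor (1.25 and 1.16), were likewise past 2-fold in both lines. BBC3, which encodes the death factor PUMA, had changes of 0.54 and 0.47. SESN2, a stress sensor that ATF4 also controls, differed in the opposite direction, with changes of 0.47 in NB1691 and 1.83 in SKNBE2.

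Cholesterol synthesis genes were higher under ciclopirox in NB1691 and close to level in SKNBE2. Of 20 measured genes, 6 were at least 2-fold higher and 0 lower in NB1691, and 0 passed 2-fold in either direction in SKNBE2. Of all genes, 3.31% were higher and 5.12% lower in NB1691. The median change was 0.78 in NB1691 and -0.15 in SKNBE2. The difference in response was +1 or more for 10 of 20, against 4.17% of all genes, and above 0 for 16. Over all 20 genes the median gap between the lines, NB1691 minus SKNBE2, was 0.60 under ciclopirox and -0.22 under vehicle.

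DHCR7, which makes cholesterol in the last step of one branch, had levels of 8.94 under ciclopirox and 7.41 under vehicle in NB1691, against 7.77 and 7.91 in SKNBE2. HMGCS1, the synthase at the entry of the pathway, had levels of 11.78 and 10.62 in NB1691, against 10.51 and 10.68 in SKNBE2. MSMO1, a sterol demethylation enzyme that uses iron, had levels of 12.04 and 10.54 in NB1691, against 11.44 and 11.30 in SKNBE2. For each, the NB1691 vehicle array was the lowest or second lowest of the 4 and the NB1691 ciclopirox array the highest.

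The members came from the whole pathway. In the early steps MVK, mevalonate kinase, had changes of 0.97 in NB1691 and -0.20 in SKNBE2, and ACAT2, which joins acetyl units, 0.71 and -0.52. In the later steps NSDHL had changes of 1.07 and -0.01, EBP 0.97 and -0.16, SC5D 1.21 and 0.19, and HSD17B7 0.67 and -0.45, all of them enzymes that act on the sterol ring. SQLE, the epoxidase before ring closure, had changes of 0.57 and -0.17. PMVK, the kinase after MVK, was lower in both lines, by 0.91 and 0.74. IDI1, an isomerase, had a difference of 1.18 by its brightest probe set and 1.17 by the next, but -1.27 by each of 2 dim ones.

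By their brightest probe sets the regulators moved less in NB1691 than the cholesterol list median of 0.78. SREBF2, the gene of SREBP2, had changes of 0.37 in NB1691 and 0.41 in SKNBE2, and its 3 probe sets gave differences of -0.04 to 0.69. INSIG1, which holds SREBP2 back and is itself its target, had changes of 0.68 and 0.20. The 3 INSIG1 probe sets gave differences of 0.48 to 1.34, the brightest being the lowest. SREBF1, which serves fatty acid synthesis, had changes of -0.16 and 0.07. Of 16 fatty acid synthesis genes the difference was +1 or more for 1 (6.25%, against 4.17% of all genes). This gene was ACSS2, a maker of acetyl-CoA from acetate. Its levels were 9.51 under ciclopirox and 7.21 under vehicle in NB1691, against 6.81 and 6.77 in SKNBE2. The list as a whole had a median difference of 0.09, and 7 genes of sterol efflux and LXR control had a median difference of -0.14 with 0 past 1 either way. ABCA1, a sterol exporter, had changes of 0.27 and -0.11.

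The promoter of DHCR7 is shown because this gene had the largest difference in the list. Its window (GRCh38.p14, chr11:71448344-71448643, minus strand) held CCAAT, the box that NF-Y binds beside SREBP2 at many sterol genes, at 2 places marked in capitals, one of them on the opposite strand:
DHCR7: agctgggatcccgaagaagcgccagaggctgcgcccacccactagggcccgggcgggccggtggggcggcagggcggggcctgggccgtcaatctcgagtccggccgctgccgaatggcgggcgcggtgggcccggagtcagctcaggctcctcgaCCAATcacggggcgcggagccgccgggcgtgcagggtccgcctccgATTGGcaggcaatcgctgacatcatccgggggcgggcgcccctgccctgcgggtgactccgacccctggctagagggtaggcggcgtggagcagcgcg
CCAAT was found on either strand in 16 of 18 cholesterol genes with a promoter entry (88.9%), against 39.7% of all genes.

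**Figure D3:**
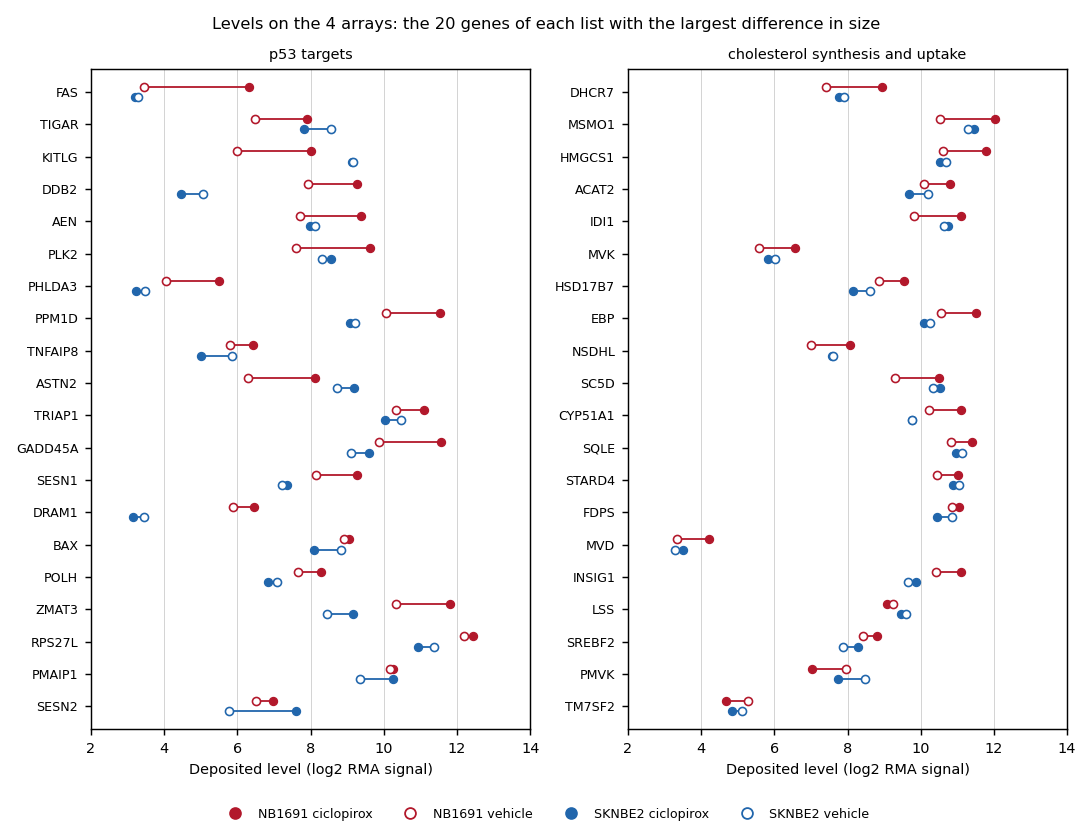
Deposited log2 levels on the 4 arrays are shown for the 20 genes with the largest difference in size among p53 targets (left) and for all 20 measured cholesterol genes (right); red is NB1691, blue is SKNBE2, filled is ciclopirox, open is vehicle, and there is 1 array per point. FAS separates only in NB1691 (6.33 and 3.46), and SESN2 separates more in SKNBE2 (7.60 and 5.77).

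Genes of the integrated stress response were higher under ciclopirox mainly in SKNBE2. Of 40 measured genes, 7 were at least 2-fold higher and 1 lower in NB1691, against 20 higher and 0 lower in SKNBE2. Over all genes 3.31% were higher in NB1691 and 2.11% in SKNBE2. The median change was 0.40 in NB1691 and 1.02 in SKNBE2. The difference in response was -1 or less for 17 of 40 (42.5%, against 6.57% of all genes) and +1 or more for 1. It was below 0 for 36 of the 40. Without the 3 genes that the HIF list also holds, the median difference was -0.66, close to the -0.71 of the whole list.

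INHBE, an activin subunit that ATF4 induces, had levels of 11.57 under ciclopirox and 10.96 under vehicle in NB1691, against 8.79 and 2.75 in SKNBE2. The fitted difference was -5.42, and because the SKNBE2 vehicle level lay below the level filter of 3.21 its exact size and its rank are uncertain. The SKNBE2 ciclopirox level was still below the NB1691 vehicle level.

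CHAC1, which degrades glutathione, had levels of 4.71 and 5.61 in NB1691, against 7.69 and 4.59 in SKNBE2. SLC7A11, the cystine importer, had levels of 5.97 and 7.10 in NB1691, against 9.18 and 6.25 in SKNBE2. Both genes were lower under ciclopirox in NB1691, by 0.90 and 1.13, and higher in SKNBE2, by 3.10 and 2.93. The 2 SLC7A11 probe sets gave differences of -4.06 and -4.62.

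The window of CHAC1 (GRCh38.p14, chr15:40953221-40953520, plus strand) is shown with the composite C/EBP and ATF motif TGATGNAA, which lies on the opposite strand and starts at position -209 from the start of the gene:
CHAC1: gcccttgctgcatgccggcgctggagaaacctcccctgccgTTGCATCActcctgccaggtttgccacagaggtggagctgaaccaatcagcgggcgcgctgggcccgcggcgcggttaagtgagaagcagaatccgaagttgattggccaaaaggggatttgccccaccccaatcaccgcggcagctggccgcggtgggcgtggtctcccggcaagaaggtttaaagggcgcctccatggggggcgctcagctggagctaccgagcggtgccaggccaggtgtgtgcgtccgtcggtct
TGATGNAA was found on either strand in 8 of 30 genes of the list with a promoter entry (26.7%), namely ASNS, ATF3, CEBPG, CHAC1, JDP2, SLC1A5, SLC3A2 and SLC7A1, against 4.46% of all genes. The median difference in response was -0.78 with it and -0.71 without, so the letters did not set apart the genes that differed between the lines.

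The transcription factors of the response followed the same order by their brightest probe sets. DDIT3, also called CHOP, had levels of 9.53 and 8.88 in NB1691, against 9.38 and 7.45 in SKNBE2. ATF3 had levels of 9.13 and 8.88 in NB1691, against 8.82 and 7.10 in SKNBE2. TRIB3, a pseudokinase that damps ATF4, had levels of 9.32 and 8.83 in NB1691, against 8.85 and 6.56 in SKNBE2. In all 3 the SKNBE2 vehicle array was the lowest, and the other 3 arrays lay within 0.7 of each other. Another probe set gave a difference of -0.02 for ATF3 and -0.55 for TRIB3, where the brightest gave -1.47 and -1.80.

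Over the whole list, the level was higher in NB1691 for 14 of 40 genes under ciclopirox and for 26 of 40 under vehicle. The median gap between the lines, NB1691 minus SKNBE2, was -0.40 under ciclopirox and 0.32 under vehicle. ASNS, asparagine synthetase, had changes of 0.41 and 1.52 and ended at 12.22 in NB1691 and 12.38 in SKNBE2. Other amino acid genes in the list differed less, such as the serine synthesis genes PSAT1 (-0.13 and 0.63) and PHGDH (0.50 and 0.61). ATF4 mRNA had changes of 0.42 and 0.57, although the factor is controlled mostly at translation, which arrays do not read. Of 19 aminoacyl-tRNA synthetases, 0 had a difference of 1 or more either way, with a median difference of -0.09.

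A few stress genes were shared or leaned to NB1691. ATF5 had levels of 9.48 and 7.15 in NB1691, against 9.67 and 6.0 in SKNBE2, and was past 2-fold in both lines. NUPR1, a stress cofactor, was higher by 1.94 and 2.12, and STC2, a secreted glycoprotein, by 1.24 and 1.76. PPP1R15A, the phosphatase subunit that ends the response, was the single member with a difference of +1 or more, at 2.15 in NB1691 and 1.15 in SKNBE2.

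The other stress programs had median differences of smaller size, 0.06 for ER chaperone and unfolded protein genes and 0.20 for heat shock genes. Of 25 ER chaperone and unfolded protein genes, 2 had a difference of -1 or less (8.0%, close to the 6.57% of all genes). They were the stress sensor ERN1 (changes of 0.13 in NB1691 and 1.99 in SKNBE2) and EDEM1, which handles misfolded glycoproteins (-0.15 and 1.23). The 3 ERN1 probe sets gave differences of -1.85 to -0.10, and the 2 of EDEM1 gave -2.05 and -1.38. HSPA5, the main ER chaperone, had changes of 0.93 and 0.21, and its 2 probe sets gave differences of 0.72 and -0.35. Of 15 heat shock genes 6 had a difference of +1 or more, against 4.17% of all genes. HSPA6, an inducible chaperone, was past 2-fold higher in NB1691 (1.43 and 0.08), and HSPB1, a small heat shock protein, was past 2-fold lower in SKNBE2 (-0.21 and -1.34). HSPA4L, a chaperone of the HSP110 family, had changes of 0.99 and -0.90, and BAG3, a chaperone partner, 0.79 and -0.57. HSPA1A (0.25 and -0.78) has a near-identical copy, HSPA1B, that its probes may not tell apart.

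Oxidative stress and iron genes had list median differences near 0, at 0.07 for NRF2 targets and 0.08 for iron handling. Of 21 NRF2 targets 2 had a difference of +1 or more (9.5%, against 4.17% of all genes). They were GCLM (-0.10 and -1.41), a subunit of the glutathione synthesis enzyme, and NQO1 (0.28 and -0.97), a quinone reductase. The 1 at -1 or less (4.8%, against 6.57% of all genes) was SLC7A11, which also stands in the stress response list. HMOX1, the haem oxygenase, had changes of 0.38 and 0.47. Among 22 iron handling genes 0 differed by 1 or more. TFRC, the transferrin receptor, had levels of 12.92 and 11.68 in NB1691, against 12.87 and 12.09 in SKNBE2, higher under ciclopirox in both.

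HIF targets were higher under ciclopirox in both lines, but not the same ones to the same degree. Of 47 measured targets, 14 were at least 2-fold higher in NB1691 and 17 in SKNBE2, with 0 lower in either and 5 higher in both. The shares of all genes were 3.31% higher in NB1691, 2.11% in SKNBE2 and 0.468% in both. The median change was 0.58 in NB1691 and 0.73 in SKNBE2. The difference was +1 or more for 6 (12.8%) and -1 or less for 9 (19.1%), more than the 4.17% and 6.57% of all genes on both sides.

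AK4, a mitochondrial adenylate kinase, had levels of 8.67 and 8.49 in NB1691, against 9.49 and 7.21 in SKNBE2. VEGFA, the angiogenic factor, had levels of 10.78 and 10.43 in NB1691, against 11.56 and 9.76 in SKNBE2. NDRG1, a stress-response gene, had levels of 8.92 and 8.15 in NB1691, against 6.90 and 4.47 in SKNBE2. The SKNBE2 vehicle array was the lowest in all 3, and another VEGFA probe set gave a difference of 0.021 where the brightest gave -1.45. DDIT4, an inhibitor of mTOR that ATF4 also controls, had changes of -0.48 and 1.54. SLC2A1, the glucose importer GLUT1, had changes of -0.13 and 0.99, and PFKFB3, which makes an activator of glycolysis, 0.09 and 1.11.

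Other HIF targets had the larger change in NB1691. P4HA1, a subunit of collagen prolyl hydroxylase, had levels of 8.68 and 6.67 in NB1691, against 9.49 and 8.72 in SKNBE2. P4HA2, another such subunit, had levels of 9.13 and 6.80 in NB1691, against 7.99 and 6.93 in SKNBE2. NRN1, a neurite growth gene, had levels of 10.90 and 8.43 in NB1691, against 9.02 and 8.29 in SKNBE2, and ALDOC, an aldolase, had changes of 1.99 and 0.44. For these genes the NB1691 vehicle level was below or within 0.2 of the SKNBE2 vehicle level. HIF1A had changes of 0.07 and -0.13, and EPAS1, which encodes HIF2 alpha, -0.42 and -0.10. Of 21 glycolysis genes, 13 of which stand in the HIF list, 1 had a difference of +1 or more and 2 of -1 or less. These were 4.8% and 9.5%, against 4.17% and 6.57% of all genes.

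Mitosis genes were lower under ciclopirox in SKNBE2 and close to level or slightly higher in NB1691. Of 42 measured genes, 0 passed 2-fold in either direction in NB1691, against 0 higher and 13 lower in SKNBE2, where 1.25% of all genes were lower. The median change was 0.21 in NB1691 and -0.63 in SKNBE2. All 42 had a difference above 0 and 20 had one of +1 or more (47.6%, against 4.17% of all genes). The change was below 0 for all 42 in SKNBE2 and above 0 for 31 in NB1691. The level in NB1691 exceeded that in SKNBE2 for all 42 under ciclopirox and for 24 of 42 under vehicle.

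SPC25, a kinetochore subunit, had levels of 9.20 and 8.70 in NB1691, against 7.45 and 8.73 in SKNBE2. BUB1, a checkpoint kinase, had levels of 9.29 and 9.12 in NB1691, against 7.07 and 8.62 in SKNBE2. CENPA, the centromeric histone, had levels of 10.08 and 9.93 in NB1691, against 9.01 and 10.30 in SKNBE2. The SKNBE2 ciclopirox array was the lowest of the 4 in each, and the other 3 lay within 0.7 of each other. One dim BUB1 probe set gave a difference of -0.17, against 1.72 by the brightest.

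The window of CENPA (GRCh38.p14, chr2:26785806-26786105, plus strand) is shown with TTTGAA, the core of the cell cycle homology region bound by the DREAM complex, and with CCAAT on the opposite strand at 2 places, all in capitals:
CENPA: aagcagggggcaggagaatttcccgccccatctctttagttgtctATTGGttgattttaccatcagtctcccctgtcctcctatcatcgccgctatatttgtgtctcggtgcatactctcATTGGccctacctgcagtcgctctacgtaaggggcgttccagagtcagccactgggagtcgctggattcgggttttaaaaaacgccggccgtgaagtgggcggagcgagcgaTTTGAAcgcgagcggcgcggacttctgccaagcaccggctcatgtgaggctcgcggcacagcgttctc
TTTGAA was found on either strand in 28 of 35 mitosis genes with a promoter entry (80.0%), against 18.2% of all genes, and CCAAT in 28 of 35 (80.0%), against 39.7%. These motifs share no overlapping position with each other in the CENPA window. The median difference was 0.78 for mitosis genes with TTTGAA and 1.05 for those without it.

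CDC20, the activator of the anaphase ligase, had changes of 0.02 in NB1691 and -1.30 in SKNBE2. TPX2, a spindle factor, had changes of 0.61 and -0.83, and INCENP, a chromosomal passenger, 0.70 and -1.0. FOXM1, the transcription factor of late cell cycle genes, had changes of 0.97 and -0.38. BIRC5, survivin, gave differences of 1.24, 1.32 and 1.32 by its 3 probe sets. MKI67, the proliferation antigen, had differences of 1.21 to 1.74 by 4 probe sets, while its NB1691 change ran from 0.06 to 1.67 and its SKNBE2 change from -1.15 to -0.07. The sign of the difference held across its probe sets, and which line moved did not.

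DNA replication genes differed in the same direction with smaller steps. Of 44 measured genes, 2 were at least 2-fold higher in NB1691, where 3.31% of all genes were, and 0 passed 2-fold in SKNBE2. The median change was 0.26 in NB1691 and -0.23 in SKNBE2. The difference was above 0 for 41 genes and +1 or more for 6 (13.6%, against 4.17% of all genes). ORC1, an origin recognition subunit, had levels of 7.64 and 5.88 in NB1691, against 6.43 and 6.54 in SKNBE2. MCM10, an initiation factor, had changes of 0.78 and -0.51, MCM2, a helicase subunit, 0.52 and -0.32, and PCNA, the polymerase clamp, -0.03 and -0.19. The NB1691 level was the higher one for 31 of 44 genes under ciclopirox and for 10 of 44 under vehicle.

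Genes that p53 is known to repress through the DREAM complex, 17 of 22 of which are also mitosis genes, had a median change of 0.41 in NB1691 and -0.52 in SKNBE2. Their differences were above 0 for 22 of 22. In NB1691, where p53 targets were higher under ciclopirox, 0 of the 22 were past 2-fold lower, against 6 of 22 in SKNBE2. The shares of all genes past 2-fold lower were 5.12% in NB1691 and 1.25% in SKNBE2. CDKN1A was higher in both. The 22 G1 cyclins and CDK inhibitors had a median difference of 0.11. Of these, 2 had a difference of +1 or more (9.1%, against 4.17% of all genes). Another 3 had one of -1 or less (13.6%, against 6.57%), so members differed both ways. CCND1, cyclin D1, had changes of -0.77 and 0.26, and CCND3, cyclin D3, 0.69 and -0.59. In the derivative line SKNAS/shHIF1a the mitosis median was -0.73 and in SKNAS 0.11. The part of labelled Myc status was not tested.

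**Figure D4:**
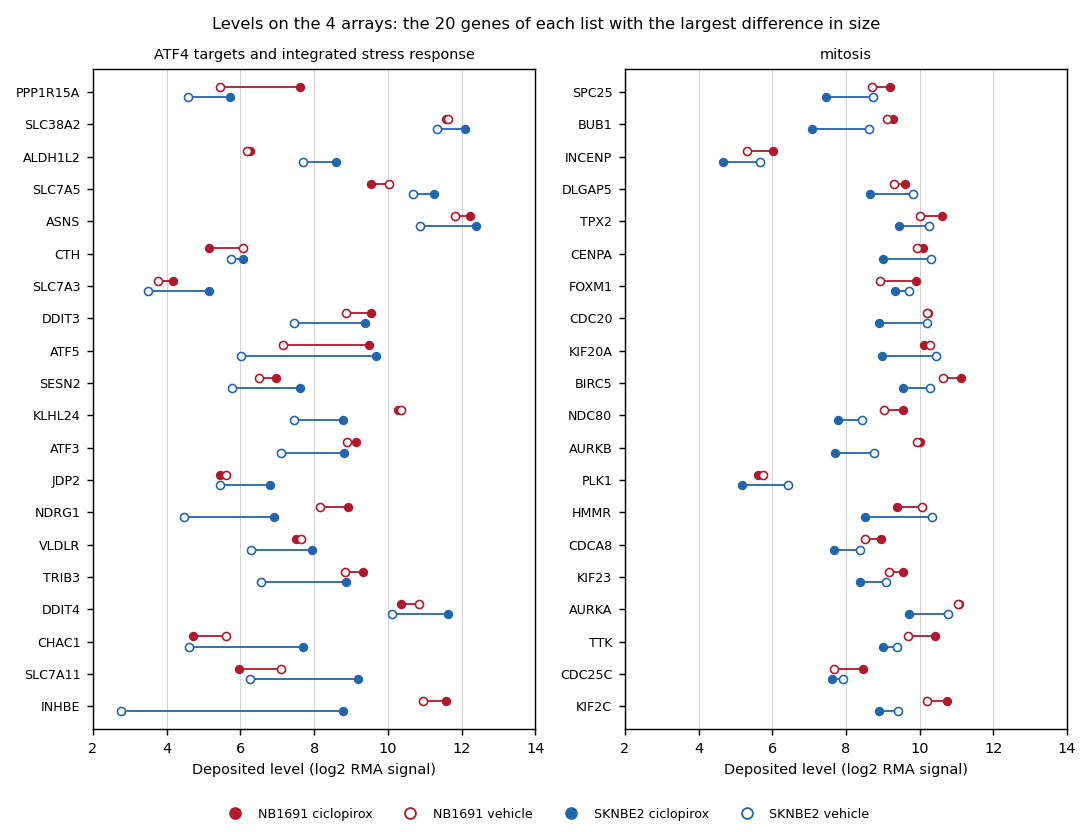
Deposited log2 levels on the 4 arrays are shown for the 20 genes with the largest difference in size of the integrated stress response list (left) and the mitosis list (right); red is NB1691, blue is SKNBE2, filled is ciclopirox, open is vehicle, and there is 1 array per point. On the left the open blue points mostly lie lowest (INHBE 2.75), and on the right the filled blue points lie lowest except for FOXM1 (BUB1 7.07).

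Some genes of nerve cell identity were lower under ciclopirox in NB1691. Of 23 noradrenergic genes, 4 were at least 2-fold lower in NB1691 and 0 in SKNBE2, where 5.12% and 1.25% of all genes were lower. In NB1691 9 of the 23 had a change above 0, and the median difference was -0.27. CHGB, a granin of secretory vesicles, had levels of 10.89 and 12.41 in NB1691, against 11.28 and 11.08 in SKNBE2. CHGA, its relative, had levels of 12.10 and 13.15 in NB1691, against 12.46 and 12.42 in SKNBE2. SOX11, a neural transcription factor, had changes of -1.16 and 0.18. The NB1691 vehicle array was the highest for both granins.

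Of 31 neuronal differentiation genes 26 had a difference below 0, with 5 at -1 or less (16.1%, against 6.57% of all genes) and 1 at +1 or more. Over all genes, 6928 of 14517 lay above 0. PCP4, a calmodulin regulator, had levels of 6.44 and 10.12 in NB1691, against 3.06 and 3.38 in SKNBE2, where it was near background on both arrays. GPM6A, a neuronal membrane protein, had levels of 3.22 and 6.38 in NB1691, against 2.81 and 2.67 in SKNBE2. RET, a receptor kinase, had changes of -1.62 and 0.42, and DCX, a microtubule protein of young neurons, -0.61 and 0.52. STMN4, another microtubule regulator, was the exception, with levels of 8.97 and 6.15 in NB1691, against 6.30 and 5.91 in SKNBE2. Of 13 MYC, MAX and MXD factors 3 had a difference of -1 or less (23.1%, against 6.57% of all genes). Among them were MYCL, with changes of -1.84 in NB1691 and -0.70 in SKNBE2, and the MYC antagonist MXD4, with -0.60 and 0.94. The 54 MYC targets in ribosome and nucleotide synthesis had a median difference of 0.01.

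**Figure D5:**
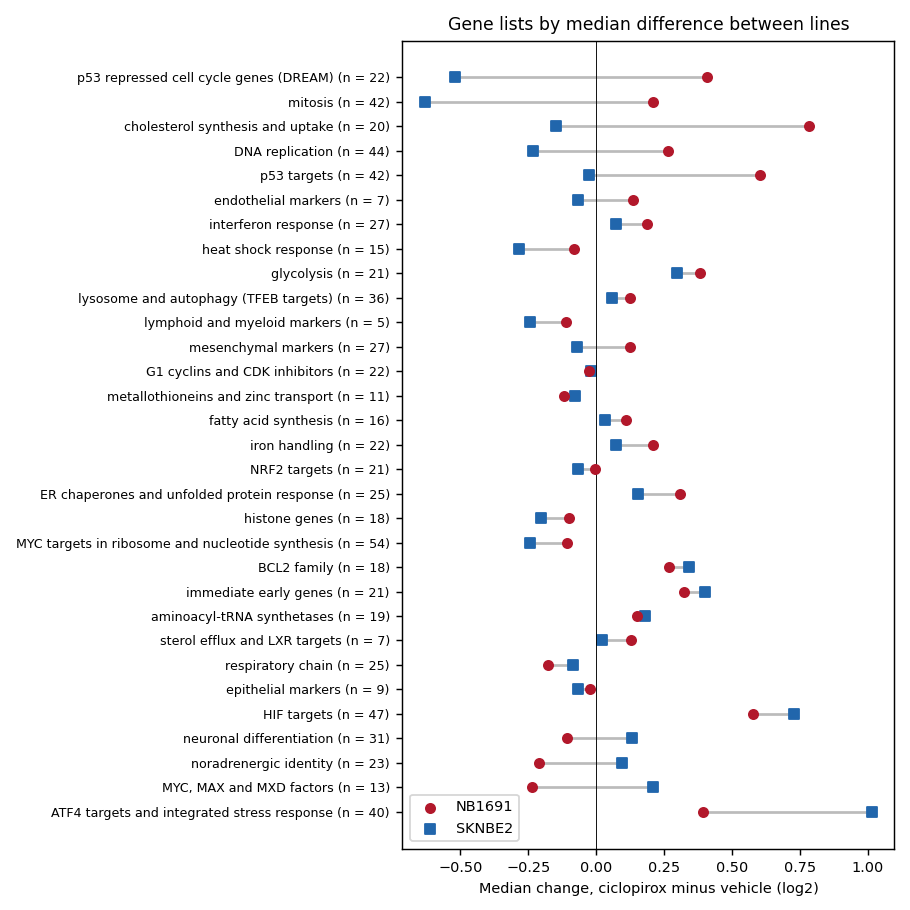
For each gene list with at least 5 measured genes, the red circle is the median change under ciclopirox in NB1691 and the blue square that in SKNBE2 (log2, x axis), with lists ordered by the median difference. The cell cycle, cholesterol and p53 lists stand at the top, and the integrated stress response stands at the bottom with medians of 0.40 and 1.02.

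Beyond the lists, the largest differences toward NB1691 mixed genes of many kinds. MCHR1, a receptor for melanin-concentrating hormone, had levels of 8.34 and 4.88 in NB1691, against 5.22 and 5.96 in SKNBE2. FITM1, a lipid droplet gene, had levels of 6.70 and 2.95 in NB1691, against 2.67 on both SKNBE2 arrays. STK17A, a kinase linked to cell death, had levels of 10.63 and 7.16 in NB1691, against 7.29 and 7.26 in SKNBE2. In all 3 the NB1691 ciclopirox array stood above the others, and for STK17A all 3 probe sets gave differences of 1.52 to 3.44.

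GPNMB, a glycoprotein of lysosomes, had levels of 7.40 and 3.80 in NB1691, against 2.80 and 2.66 in SKNBE2. TFEB, a master regulator of lysosome genes, had levels of 7.12 and 5.24 in NB1691, against 6.52 and 6.46 in SKNBE2, and TFE3, its relative, had changes of 1.05 and 0.01. The 36 lysosome and autophagy genes as a list had a median difference of 0.14, with 4 at +1 or more (11.1%, against 4.17% of all genes). A few other large values rest on 1 kind of probe set. WDR33 had a change of 3.56 in NB1691 by its brightest probe set and 3.64 by another, but -0.44, -0.27 and -0.31 by the remaining 3, and DIS3L2, SETD4 and NDST1 also had probe sets of both signs.

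Toward SKNBE2, the largest differences beside the stress genes were of both kinds, a higher level in SKNBE2 or a lower one in NB1691. SCRG1 had levels of 7.16 and 7.33 in NB1691, against 7.27 and 3.67 in SKNBE2. AJUBA, a LIM protein of cell junctions, had levels of 4.59 on both NB1691 arrays, against 6.42 and 3.47 in SKNBE2. TM4SF4, a tetraspanin-like protein, had levels of 3.20 and 6.90 in NB1691, against 3.16 and 3.10 in SKNBE2. SCRG1 and AJUBA were higher under ciclopirox in SKNBE2, and TM4SF4 was lower in NB1691 with no signal above the level filter in SKNBE2.

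How far a gene's value can be trusted was gauged by its second probe set. Of 311 genes with a difference of +1 or more and a second probe set above the level filter, the second had the same sign in 240 (77.2%) and passed 1 in 110 (35.4%). Of 526 genes at -1 or less, 400 kept the sign (76.0%) and 160 passed 1 (30.4%). The median gap between both probe sets over 7177 genes was 0.35. Passing 1 the same way requires the same sign, so the share past 1 cannot exceed the share that kept the sign. Where the second probe set had a mean level of at least 6, the sign held in 81.8% upward and 84.1% downward. It passed 1 the same way in 44.1% and 41.8%. The level of 6 was chosen after the values were seen.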

How the data were processed

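Total RNA from 8 samples of 4 neuroblastoma lines was amplified to biotinylated cRNA by 3′ in vitro transcription, per the labels' protocols. The deposited values are log2 signals from RMA, per the submitters' processing notes; software version and background settings are not given in the sources used here. The values were used without further scaling, and scanner files were not used here.

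Of 54715 probe sets, 40920 carried 1 gene symbol, 864 several and 12931 none. Symbols were updated through gene IDs to RefSeq (40864 matched). Each of 19774 genes took the probe set with the highest mean over 8 arrays and was kept if that mean reached the 40th percentile of all probe sets (log2 3.21), leaving 14517. RMA compresses low signals, so changes near background are understated. Differences were taken within a line, then between lines, in Python 3.11.15 with pandas 2.3.3, and checked on simulated data.

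Members and the 32 gene lists (850 entries, 751 measured) were chosen with earlier results of these data known. Some listed genes were not analysed here. Named genes were the 15 with the largest difference each way, the 8 largest each way changed in 1 line, up to 8 with opposite changes, 6 per list and a fixed set; EBP, GADD45A, HSD17B7, NSDHL, NUPR1, P4HA1, P4HA2, PHGDH, PHLDA3, PMVK, PPM1D, PPP1R15A, PSAT1, SC5D, SESN2, SQLE, STC2, TNFRSF10B, TP53INP1, TRIAP1 and genes listed only for a motif were named after their values were seen. Promoters were RefSeq windows of 300 bases (GRCh38.p14). Alternatives covered the probe set choice, filter, floor, scaling and threshold.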

Additional observations from a re-analysis of the deposited data

Results flagged for a closer look

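In 10 genes the lines moved in opposite directions by at least 2-fold, judged by the 1 array pair of each line. With 1 array per line and treatment none of these differences was tested. With all probe sets of a gene averaged, 1 gene each way was still opposite by at least 2-fold. Higher in NB1691 and lower in SKNBE2 were PCIF1, an mRNA cap methyltransferase gene (changes of 2.11 and -1.26, difference 3.37), and DEPDC7 (1.06 and -1.12, difference 2.17). Of 4 PCIF1 probe sets 3 gave differences of 2.27 to 3.97 and the dimmest 0.18.

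Lower in NB1691 and higher in SKNBE2 were the cystine importer gene SLC7A11 (-1.13 and 2.93, difference -4.06), the kidney salt transporter gene SLC12A3 (-2.19 and 1.98, difference -4.16), IGFBP3, which binds insulin-like growth factors (-1.97 and 1.65, difference -3.62), and the non-coding MIR100HG (-1.82 and 1.55, difference -3.37). The same held for LDB3, a muscle Z-disc gene (difference -3.17), FOSL2, an AP-1 subunit (-2.47), ABRAXAS1, a DNA repair scaffold (-2.30), and CCDC71L (-2.25). Both probe sets of SLC7A11, IGFBP3, ABRAXAS1 and CCDC71L gave differences below -1, whereas MIR100HG, LDB3 and FOSL2 each had a probe set of the opposite sign and SLC12A3 had another at -0.25.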

How the results depend on the processing

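No paired analysis was possible because each line and treatment has 1 array and no result comes from a test. Replicate error is unknown, nothing says that a second culture would give the same values, and line, culture and array cannot be told apart. Across the alternatives the p53 median ran from 0.41 to 0.53, cholesterol 0.81 to 1.02, stress response -0.76 to -0.58 and mitosis 0.86 to 0.95. Lists with medians near 0 changed sign: endothelial markers ran from -0.17 to 0.25, lymphoid and myeloid markers from -0.12 to 0.20, iron handling from -0.0079 to 0.14, the BCL2 family from -0.12 to 0.037 and histone genes from -0.035 to 0.16. The Schwann cell list had no gene left under the 60th percentile filter and with averaged probe sets.

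With all probe sets of a gene averaged, NB1691 had 428 lower genes, SKNBE2 170 higher and 107 lower, 493 differences were -1 or less, 298 genes were lower in NB1691 alone, 87 higher and 49 lower in SKNBE2 alone, 40 higher and 29 lower in both, and 1 opposite each way. At a threshold of 1.5 the counts were 157 higher and 198 lower in NB1691, 94 and 30 in SKNBE2, 151 and 289 differences, 82 and 123 in NB1691 alone, 28 and 14 in SKNBE2 alone, 22 and 6 in both, and 0 and 3 opposite. Fewer genes pass a higher threshold by construction. The other alternatives left all 14 counts within 1.5 times.

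Single differences changed sign for AXL (0.026) with the brightest probe set over the 4 arrays, and for GRB10 (0.18) and IDI1 (-0.048) with averaged probe sets. By the probe set farthest from the brightest alone, signs changed for AXL (0.026), BCL2 (0.98), BUB1 (-0.17), DIS3L2 (-0.75), FOSL2 (0.86), GRB10 (1.98), IDI1 (-1.27), LDB3 (0.12), MIR100HG (1.61), NDST1 (-1.13), NEDD9 (0.56), RGS5 (0.15), SETD4 (-0.26), SQSTM1 (-0.35), UTP15 (-0.26), VEGFA (0.021) and WDR33 (-1.16). With the farthest probe set alone, 73 other differences moved by more than 0.573, the pooled SD among probe sets of a gene, and 51 did not. With averaged probe sets 53 other differences moved by more than that and 191 did not. The cause was not tested.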

Other observations

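Of 27 interferon response genes, with a median difference of 0.21, 4 had a difference of +1 or more, against 4.17% of all genes. HLA-B, a class I antigen presenting gene, had levels of 10.05 under ciclopirox and 7.79 under vehicle in NB1691, against 6.88 and 6.72 in SKNBE2, and HLA-C had levels of 9.97 and 7.83 in NB1691, against 7.17 and 7.02 in SKNBE2. The probes of these near-identical class I genes may not tell them apart. ISG15, a ubiquitin-like interferon product, had changes of 0.64 and -0.96, and IRF9, a factor of interferon signalling, 0.90 and -0.19.

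Death regulators did not separate the lines as a list. Of 18 BCL2 family genes 1 had a difference of +1 or more and 1 of -1 or less. That is 5.56% each way, close to the 4.17% and 6.57% of all genes. The first was BAK1 (changes of 1.25 in NB1691 and -0.41 in SKNBE2). The second was BCL2 (-0.16 and 1.25), whose 4 probe sets disagree in sign. HRK, a neuronal death factor, had levels of 6.74 and 4.07 in NB1691, against 6.23 and 4.15 in SKNBE2, past 2-fold in both. SKNAS/shHIF1a and SKNAS had HRK changes of -0.99 and -0.08.

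Beside the N-Myc pair, the p53 list median was 0.24 in SKNAS/shHIF1a and 0.34 in SKNAS, the cholesterol median -0.12 and -0.05, and the stress response median -0.01 and 0.17. The metallothionein and zinc list, at -0.12 in NB1691 and -0.08 in SKNBE2, was 1.03 in SKNAS/shHIF1a and 0.16 in SKNAS.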
